A study of Mus musculus with 4 samples.

Results

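Polyamines are small positively charged molecules that cells make from ornithine and methionine, and 10 genes for their synthesis, control and breakdown are described here in mouse mammary tumours. They were chosen by symbol, from knowledge of the pathway and with earlier results of these data known. The genes are Odc1, Srm, Sms and Amd1 for synthesis, Oaz1, Oaz2 and Azin1 for control by antizyme, and Sat1, Smox and Paox for breakdown. All 10 were found among the 20555 genes of the deposited table, and all 10 were among the 16725 genes with enough signal to test. RNA came from bulk tumours of mice that all carry PyMT, the polyoma middle T oncogene. The 2 Control-PyMT libraries are labelled with the genotype PyMT and nothing else. The 2 MYC-PyMT libraries are labelled S100a8-creRosa26-LSL-MYCPyMT, in which Cre recombinase, driven by the neutrophil gene S100a8, opens a MYC allele at Rosa26. Ages, treatments and whether the libraries of a group came from separate mice are not given in the labels, and the p-values below therefore reflect spread among the libraries at hand, possibly of technical origin only.

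In the pathway, ornithine decarboxylase (Odc1) makes putrescine. S-adenosylmethionine decarboxylase (Amd1) supplies the aminopropyl groups with which spermidine synthase (Srm) and then spermine synthase (Sms) extend it. Antizymes (Oaz1, Oaz2) bind ornithine decarboxylase and deliver it to the proteasome, and antizyme inhibitor (Azin1), a relative of the enzyme without its activity, binds antizyme in its place. Sat1 acetylates spermidine and spermine, Paox oxidises the acetylated forms, and Smox oxidises spermine directly. Dividing cells need polyamines, and Odc1 is a long-known target gene of MYC. Only mRNA was measured, not enzymes or polyamines.

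Each library held 31783846 to 34190913 reads, and each polyamine gene had at least 162 reads in every library. Values are the deposited scaled counts, which are reads divided by a size factor per library, and means are given ± SD with n = 2 in each group. Log2 changes are MYC-PyMT minus Control-PyMT on the scale of log2(scaled count + 1), with limma p-values adjusted over all tested genes by Benjamini-Hochberg and a threshold of 0.05. The tumours were epithelial by their markers, with a summed level of 84307 to 106720 scaled counts over 6 epithelial genes in the 4 libraries. The mouse Myc gene had 1832 and 2820 scaled counts in the Control-PyMT tumours against 3215 and 2815 in MYC-PyMT, a log2 change of 0.40 that did not pass (adjusted p = 0.172). The labels do not say from which species the MYC allele comes, so its reads need not be in that value. S100a8 had 2338 and 639 against 1564 and 2524 scaled counts, and its groups overlapped.

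In MYC-PyMT tumours, 6 of the 10 genes were higher by limma, 2 were lower and 2 did not pass the test. All 4 synthesis genes rose, led by Srm at 7.15-fold and Odc1 at 3.47-fold. The antizyme genes split, with Azin1 higher, Oaz2 lower and Oaz1 not past the test. So did the breakdown genes, with Paox 4.76-fold higher, Smox 2.51-fold lower and Sat1 not past the test. Among all 16725 tested genes 23.3% were called higher and 24.6% lower, so calls were common in this comparison. The median log2 change was 0.62 over the 10 genes and -0.02 over all tested genes. Both MYC-PyMT libraries lay above both Control-PyMT libraries for 7 of the 10 genes and below them for 2, against 37.0% and 38.7% of all tested genes. Upper-quartile scaling moved the median of all genes to -0.12, and no polyamine gene changed direction under it. Because the tissue is bulk, a change in the cells present and a change in RNA per cell cannot be told apart.

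**Figure D1:**
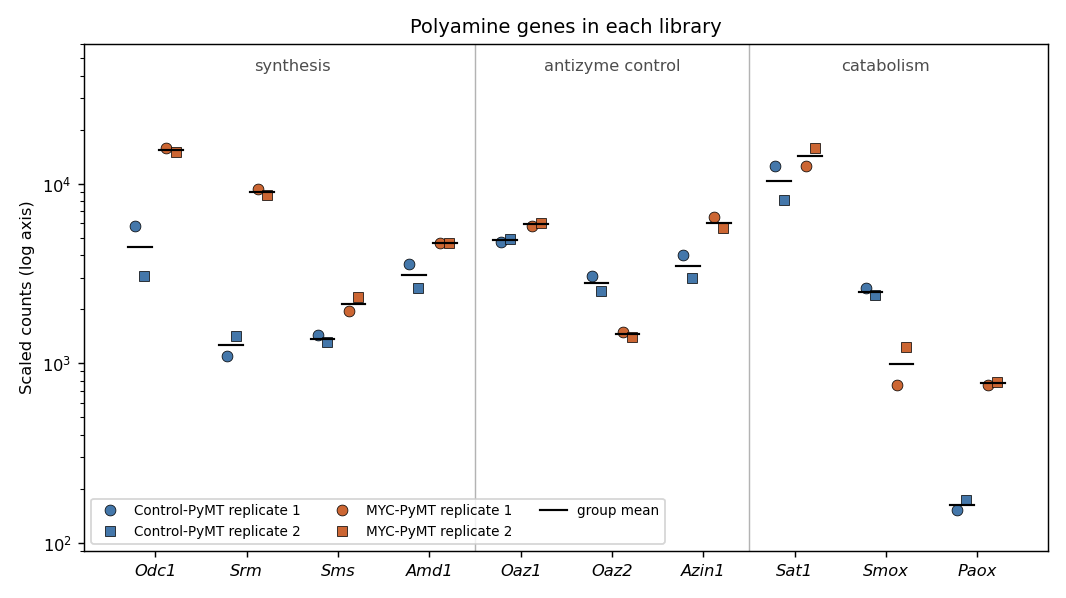
Scaled counts on a log axis for the 10 polyamine genes in each of the 4 libraries, with replicate 1 as circles, replicate 2 as squares and a bar at each group mean. The libraries of the 2 groups are well apart for Srm, Odc1 and Paox, while those of Sat1 overlap.

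Markers of what the tissue holds moved in the same comparison, and their part in the results on polyamine genes was not tested. The counts of calls below stand beside 23.3% higher and 24.6% lower over all tested genes. All 5 genes of dividing cells rose, with summed levels of 17513 and 14029 scaled counts in the Control-PyMT tumours against 45603 and 44318 in MYC-PyMT, and a median log2 change of 1.71. Of 6 leukocyte genes 5 were tested and all 5 fell, with sums of 1536 and 1399 against 559 and 670. Cd3e, Cd8a and Ms4a1 reached the level needed for testing in the controls alone, so their falls are built into that count. Nkg7 met that level through the controls too, at 72.9 and 73.9 scaled counts against 11.1 and 5.49 in MYC-PyMT. Its MYC-PyMT replicate 2 was under the level of 10, so the fall of Nkg7 is likewise built in. Ptprc made up most of the sums, at 1333.6 and 1209.5 against 538.4 and 656.1. Ms4a1 was at 0 in a MYC-PyMT library. The 6 epithelial genes had 1 call higher and 1 lower, and the 5 macrophage genes likewise, with macrophage sums of 8147 and 9414 against 7882 and 8871. Of 5 neutrophil genes 2 rose and none fell, with sums of 3182 and 1036 against 2682 and 3899. S100a8 (log2 0.70), Csf3r (-0.36) and Cxcr2 (-0.30) did not pass the test. Of 5 fibroblast genes 2 rose and 2 fell (sums 9031 and 13456 against 9926 and 12823). Of 4 endothelial genes 1 rose (1523 and 2067 against 2511 and 2741), and of 4 adipocyte genes 1 rose and 1 fell (609 and 1866 against 3269 and 2785).

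Srm, for the enzyme that turns putrescine into spermidine, lies on chromosome 4 from 148591503 to 148594993 (GRCm38). Replicates 1 and 2 of Control-PyMT gave 1097 and 1417 scaled counts, and replicates 1 and 2 of MYC-PyMT gave 9334 and 8646. Every MYC-PyMT value was far above both controls. The mean went from 1257 ± 226 to 8990.3 ± 486, a log2 change of 2.85 (SE 0.20, 95% interval 2.41 to 3.28, limma adjusted p = 9.65e-06). Of the tested genes, 0.969% had a larger positive change. Leaving out each library in turn kept the change between 2.66 and 3.03. Of genes with a mean of at least 50 scaled counts, those nearest to Srm in profile over the 4 libraries were the folate carrier gene Slc19a1, the transcription factor gene Ascl2 and Smpdl3b. Their distances, the Euclidean distance between mean-centred log2 profiles, were 0.155, 0.203 and 0.234. Ascl2 was low, at 20.6 and 31.4 scaled counts in the Control-PyMT libraries.

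Odc1, for the enzyme that makes putrescine, lies on chromosome 12 from 17544794 to 17551505. Control-PyMT replicates gave 5805 and 3048 scaled counts, and MYC-PyMT replicates 15771 and 14950. The controls differed from each other 1.90-fold, yet the lower MYC-PyMT value was well above the higher control. From 4426 ± 1950 the mean rose to 15360.4 ± 580, a log2 change of 1.87 (SE 0.28, 95% interval 1.25 to 2.48, adjusted p = 0.000494). A larger positive change was seen in 3.58% of tested genes. Its size depended on which control was used: it was 2.33 without Control-PyMT replicate 1 and 1.40 without Control-PyMT replicate 2, and the call held in both. The nearest profiles to Odc1 were those of Kbtbd6, the phosphodiesterase gene Pde1c and Rps25-ps1, at distances of 0.174, 0.190 and 0.207. All were far below Odc1 in level: Kbtbd6 had 19.5 to 96.6 scaled counts, Pde1c 49.3 to 216 and Rps25-ps1 45.9 to 212. Rps25-ps1 is named as a pseudogene, so its reads may be shared with the ribosomal protein gene it resembles.

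Amd1 (chromosome 10, 40287458 to 40302186) makes the aminopropyl donor that Srm and Sms both use. Its scaled counts were 3584 and 2611 in Control-PyMT against 4668 and 4644 in MYC-PyMT. The groups did not overlap, and the MYC-PyMT libraries were nearly equal. The log2 change was 0.61 (SE 0.20, 95% interval 0.15 to 1.06, adjusted p = 0.0324). Upper-quartile scaling ended that call (0.50, adjusted p = 0.0590), as did leaving out Control-PyMT replicate 2 (0.38, 0.105), MYC-PyMT replicate 1 (0.60, 0.128) or MYC-PyMT replicate 2 (0.61, 0.131). Amd2, a near copy, was at 20.9 to 27.2 scaled counts in the 4 libraries. How reads that match both copies were counted is not given in the labels, so the Amd1 value is uncertain to that extent.

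Translation of Amd1 mRNA is known to be held down by polyamines through a short reading frame in its 5′ leader, which is shown because it ties the gene to the product of the pathway. In the GENCODE transcript Amd1-201 the first reading frame starts at base 12, has 6 codons before its stop, and lies at chr10:40302155-40302175 on the minus strand of GRCm38. It ends 296 bases before the coding sequence as counted along the genome, and capitals mark its start and stop codons.
Amd1 leader frame: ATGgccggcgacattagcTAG

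Sms, for the enzyme that turns spermidine into spermine, is on the X chromosome from 157443855 to 157492287. It stood at 1430 and 1312 scaled counts in the Control-PyMT tumours against 1950 and 2346 in MYC-PyMT. The rise was the same in direction as that of Srm and smaller, with intervals that do not overlap, at a log2 change of 0.64 (SE 0.19, 95% interval 0.21 to 1.07, adjusted p = 0.0202). It no longer passed when Control-PyMT replicate 1 (0.70, adjusted p = 0.0572), replicate 2 of the same group (0.58, 0.0867) or MYC-PyMT replicate 2 (0.51, 0.228) was left out. Without the variance trend the adjusted p was 0.0638 for Sms and 0.0973 for Amd1. Of the tested genes 24.9% had a larger positive change than Sms, and 26.2% a larger one than Amd1.

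As a description, promoters of the 10 genes were searched for CACGTG. This is the E-box that MYC and its partner MAX bind, and it reads the same on both strands. RefSeq promoter windows of 300 bases (GRCm38.p6), from 250 before to 50 after a start, were matched for 8 of the 10 genes, in 10 windows, and not for Srm and Azin1. One of the 10, at Sms, held the letters, and 7.15% of all 32851 windows did. In it the motif lies 196 to 191 bases before the start. The stretches below are the bases before the first annotated start of Sms, on the minus strand at chrX:157492288-157492537, and of Odc1, on the plus strand at chr12:17544623-17544793. Capitals mark CACGTG, which is not in the Odc1 stretch. Bases outside the windows, introns among them, were not searched for any of the genes. A match is a run of letters and no evidence of binding.
Sms: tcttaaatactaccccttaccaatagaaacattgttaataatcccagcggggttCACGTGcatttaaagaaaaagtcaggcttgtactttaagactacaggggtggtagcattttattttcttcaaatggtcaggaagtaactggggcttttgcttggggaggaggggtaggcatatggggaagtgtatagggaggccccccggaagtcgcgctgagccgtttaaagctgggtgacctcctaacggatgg
Odc1: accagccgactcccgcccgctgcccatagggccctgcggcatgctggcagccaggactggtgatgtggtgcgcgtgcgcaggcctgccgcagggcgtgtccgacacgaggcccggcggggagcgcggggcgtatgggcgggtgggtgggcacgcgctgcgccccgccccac

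The genes that control ornithine decarboxylase did not move as a block. Oaz1 (chromosome 10, 80826656 to 80829290), the main antizyme gene, gave 4741 and 4942 scaled counts in the Control-PyMT tumours against 5847 and 6046 in MYC-PyMT. Both MYC-PyMT libraries were above both controls by a small margin. The log2 change of 0.30 did not pass the test (SE 0.18, 95% interval -0.10 to 0.69, adjusted p = 0.190), and with the trend of change with transcript length removed it was -0.093. The processed copy Oaz1-ps, at 290 to 350.2 scaled counts, may share reads with it.

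Oaz2 (chromosome 9, 65668001 to 65690300) is a second antizyme gene. Its values were 3062 and 2536 scaled counts in the controls, and they fell to 1498 and 1408 in MYC-PyMT. The groups were clearly apart, at 2799 ± 372 against 1453 ± 64.2, a 1.93-fold difference. The log2 change was -0.94 (SE 0.19, 95% interval -1.36 to -0.52, adjusted p = 0.00287), and the call held with any 1 library left out (log2 -1.08 to -0.80).

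Azin1 (chromosome 15, 38487427 to 38519266), whose product frees ornithine decarboxylase from antizyme, moved the opposite way. It had 4009 and 2980 scaled counts in the Control-PyMT tumours against 6488 and 5658 in MYC-PyMT, with no overlap. The log2 change was 0.81 (SE 0.20, 95% interval 0.35 to 1.27, adjusted p = 0.00912). Without Control-PyMT replicate 2 it was 0.60 (adjusted p = 0.0625) and without MYC-PyMT replicate 1 it was 0.71 (0.0679), so the call ended in both cases.

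Antizyme is made only when ribosomes slip forward by a single base at a stop codon inside the coding sequence, a shift that polyamines promote, so the mRNA level alone does not give the antizyme level. The slip site is printed for both genes because it is the element through which polyamines act on them. The windows are chr10:80828272-80828317 for Oaz1 and chr9:65686249-65686294 for Oaz2, both on the plus strand of GRCm38 and taken from GENCODE transcripts. Capitals mark the last codon read before the slip and the stop codon after it.
Oaz1: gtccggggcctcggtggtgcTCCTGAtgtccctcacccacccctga
Oaz2: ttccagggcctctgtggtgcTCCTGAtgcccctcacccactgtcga
The windows are identical at 38 of 46 bases (82.6%), including all of the capitals. The mRNA of Oaz2 fell and that of Oaz1 did not pass the test. Whether the 2 changes differ from each other was not tested.

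**Figure D2:**
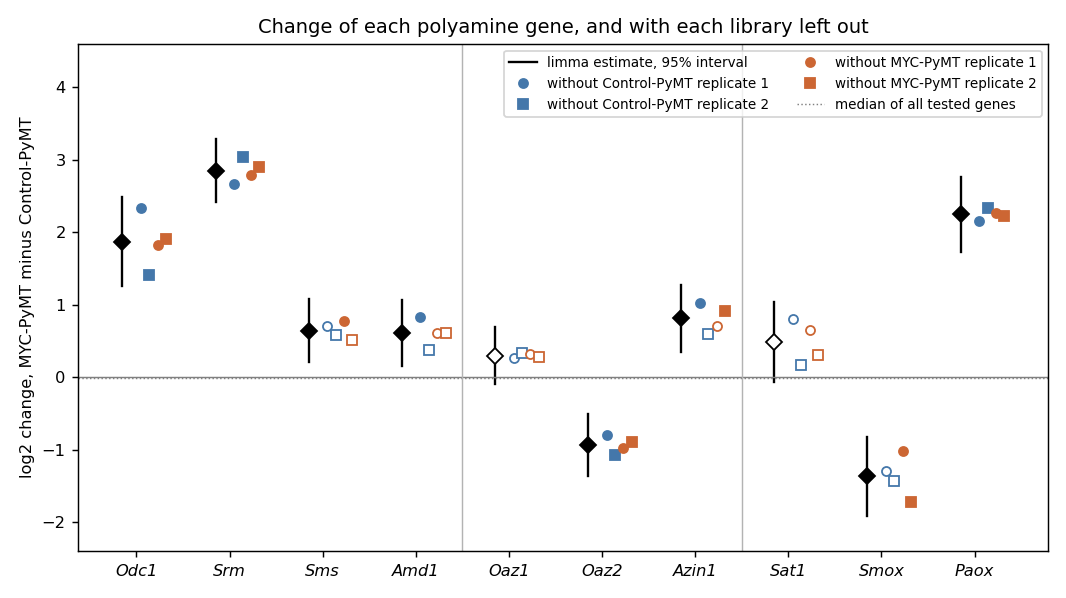
Log2 change of each polyamine gene, MYC-PyMT minus Control-PyMT, as a diamond with its 95% interval, and beside it the change with each of the 4 libraries left out in turn; filled symbols have a limma adjusted p under 0.05. Srm, Odc1, Oaz2 and Paox are filled throughout, while Sms, Amd1, Azin1 and Smox lose the call in 2 or 3 of the 4 cases.

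Among the breakdown genes, Paox (chromosome 7, 140115799 to 140137224), for the peroxisomal oxidase of acetylated polyamines, changed most. It had 152 and 172 scaled counts in the Control-PyMT tumours against 760 and 784 in MYC-PyMT. Replicates were close in both groups, at 162 ± 14.8 and 772 ± 16.8. The log2 change was 2.25 (SE 0.23, 95% interval 1.73 to 2.77, adjusted p = 7.28e-05), and 1.88% of tested genes had a larger positive change. The annotated span of Paox overlaps the start of Echs1, a gene on the opposite strand. The library kit keeps strand, per the labels, but whether counting used it is not stated, and the Paox value is uncertain to that extent. Echs1 had 4784 and 3858 scaled counts in the Control-PyMT tumours against 6326 and 5357 in MYC-PyMT. The difference in Echs1 was smaller than that in Paox as a fold and larger in scaled counts, and the part of Echs1 reads in the Paox value was not tested.

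Smox (chromosome 2, 131491496 to 131525922), for the oxidase that turns spermine straight back into spermidine, went the other way. Control-PyMT libraries had 2619 and 2385 scaled counts, and MYC-PyMT libraries 756 and 1234. The MYC-PyMT libraries differed 1.63-fold from each other, and both were below the controls. The log2 change was -1.37 (SE 0.24, 95% interval -1.92 to -0.82, adjusted p = 0.00143). With either control left out it no longer passed: -1.30 without replicate 1 (adjusted p = 0.0599) and -1.44 without replicate 2 (0.0523).

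Sat1 (X chromosome, 155213132 to 155216449), for the acetyltransferase that starts breakdown and export, was read most often of the 10 genes in the control libraries. It had 12582 and 8068 scaled counts in the Control-PyMT tumours against 12509 and 15887 in MYC-PyMT. MYC-PyMT replicate 1 lay just under Control-PyMT replicate 1, so the groups overlapped. The log2 change of 0.48 did not pass (SE 0.25, 95% interval -0.06 to 1.03, adjusted p = 0.129). With a library left out it ran from 0.16 without Control-PyMT replicate 2 to 0.81 without Control-PyMT replicate 1. With the trend of change with transcript length removed it was 0.14.

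To set the genes against each other, scaled counts were divided by the length in kilobases of the main annotated transcript. How evenly reads covered the transcripts was not tested, so places of genes of unlike length are uncertain to that extent. On that scale Sat1 had the highest level in both groups, at 8886 ± 2747 scaled counts per kilobase in Control-PyMT and 12219 ± 2056 in MYC-PyMT. Srm moved from the seventh place to the third, from 939 ± 169 to 6719 ± 363. Odc1 moved from the third to the second, from 2005 ± 883 to 6957 ± 263, and in MYC-PyMT the libraries of Odc1 and Srm overlapped. Oaz1, in the second place in Control-PyMT at 4637 ± 136, was in the fourth in MYC-PyMT at 5696 ± 135, with both its libraries below those of Srm. Smox went from the fifth to the ninth, at 1102 ± 73.0 and 438 ± 149, where its libraries overlapped those of Sms. In Control-PyMT the neighbours that overlapped were Odc1 with Oaz2, Smox with Amd1, Amd1 with Srm, and Srm with Azin1. Paox was the lowest in both groups, at 34.8 ± 3.18 and 166 ± 3.61, a level that rests on an annotated transcript of 4655 bases.

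Ratios within a library do not depend on its size factor and were given as description, since 2 against 2 libraries cannot go below an exact p of 0.33. The ratio of Odc1 to Oaz1 scaled counts was 1.22 and 0.617 in Control-PyMT against 2.70 and 2.47 in MYC-PyMT, a mean difference of 1.57 on the log2 scale. The ratio of Odc1 to Azin1 was 1.45 and 1.02 in Control-PyMT, and in MYC-PyMT it was higher at 2.43 and 2.64. For Srm to Sms the ratio was 0.767 and 1.08 in Control-PyMT against 4.79 and 3.69 in MYC-PyMT, a log2 difference of 2.21. These ratios are not corrected for transcript length: per kilobase Srm was already above Sms in Control-PyMT, at 939 against 369, and in MYC-PyMT it was at 6719 against 578. The ratio of Srm to Sat1 was 0.0872 and 0.176 against 0.746 and 0.544, and that of Odc1 to Sat1 was 0.461 and 0.378 against 1.26 and 0.941. Amd1 to Sms was the ratio whose groups overlapped, at 2.51 and 1.99 against 2.39 and 1.98.

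**Figure D3:**
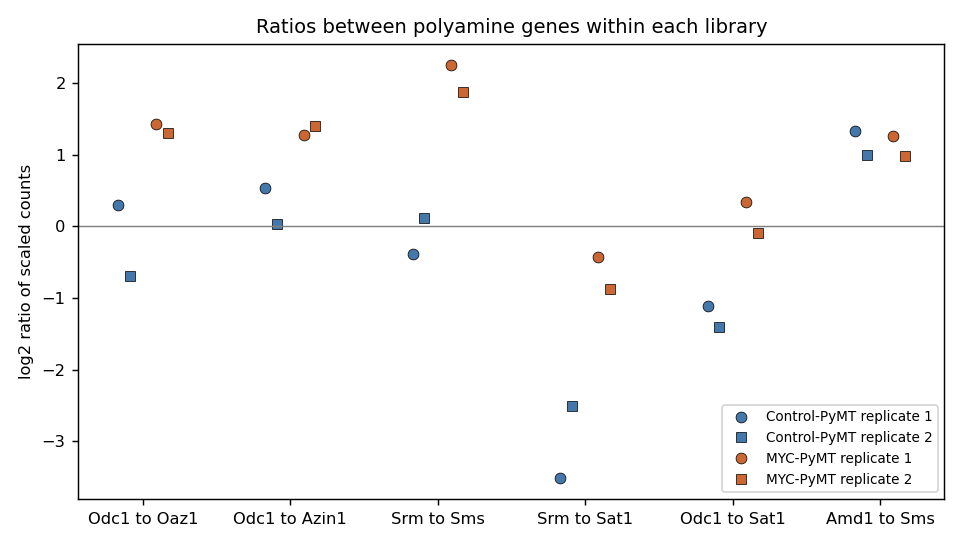
Log2 ratio of the scaled counts of 2 genes within each library, for 6 pairs, with Control-PyMT in blue and MYC-PyMT in orange. The groups are apart for the 5 ratios with Odc1 or Srm on top and overlap for Amd1 to Sms.

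Genes that feed the pathway, use its products or move polyamines were followed in 6 lists of 43 genes, of which 40 were in the table and 37 could be tested. Of these 16 were higher in MYC-PyMT by limma, 8 lower and 13 not past the test, with a median log2 change of 0.42. Over all tested genes 23.3% were higher and 24.6% lower, so the count of lower genes is near that background and is no result about the lists. Aoc1, 1 of the 8 lower genes, met the level filter through the controls alone, so its difference is built into the count. The 8 lower genes became 5 without Control-PyMT replicate 1.

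In the supply of ornithine and arginine 3 genes were higher, 3 lower and 2 not past the test of 8 tested (median 0.46). The shares over all tested genes were 23.3% and 24.6%, and with 8 genes these counts are no result about the list. Slc7a1, a carrier of arginine and ornithine, rose from 1335 ± 169 to 5435 ± 862 scaled counts (log2 2.02, limma adjusted p = 5.72e-05). Slc7a2, another carrier of the same amino acids, fell from 4745 ± 653 to 637 ± 13.6 (log2 -2.89, adjusted p = 8.86e-06). Arginases, which make ornithine, were lower: Arg2 went from 625 ± 65.8 to 156 ± 42.4 (log2 -2.02), and Arg1, a gene also strongly expressed by some macrophages, from 9035 ± 2073 to 5289 ± 915 (log2 -0.76). Arg1 no longer passed when Control-PyMT replicate 1 (adjusted p = 0.126) or MYC-PyMT replicate 2 (0.162) was left out. Slc25a15, the mitochondrial ornithine carrier, and Ass1, argininosuccinate synthase, rose by 0.74 and 0.49 on the log2 scale. The call of Slc25a15 ended without Control-PyMT replicate 2 (adjusted p = 0.0882) or MYC-PyMT replicate 1 (0.132), and that of Ass1 without any 1 of the 4 libraries (0.0565 to 0.302) and with the replicate number as a block (0.0892). Without the variance trend Arg1 (adjusted p = 0.0698) and Slc25a15 (0.0537) no longer passed. Ass1 also no longer passed without the level filter (0.0530), with upper-quartile scaling (0.0917), without the variance trend (0.107) or with the length trend removed (0.160, and 0.283 with the block).

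Genes for S-adenosylmethionine, the source of the aminopropyl group, were higher in 3 of 8 cases and lower in 1 (median 0.23). Beside 23.3% and 24.6% over all genes, counts from 8 genes are again no result about the list. Mat2a, the synthetase of non-liver tissues, rose from 8221 ± 1192 to 17056 ± 2250 scaled counts (log2 1.05, adjusted p = 0.00220). Ahcy, which clears S-adenosylhomocysteine, rose from 1250.2 ± 152 to 3549.8 ± 565 (adjusted p = 0.000287). Mtrr, the reductase that keeps methionine synthase active, rose from 683 ± 131 to 1673 ± 29.7 (adjusted p = 0.000818). Ahcyl2, a relative of Ahcy, fell by 0.87, a call that ended without MYC-PyMT replicate 2 (adjusted p = 0.0526).

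Srm and Sms release methylthioadenosine, which a salvage route turns back into methionine. Of its 5 genes 4 rose, none fell and Apip did not pass (log2 -0.12), with a median of 1.19. Over all tested genes 23.3% were called higher and 24.6% lower, and the list was not tested as a set. Mtap, the phosphorylase that starts the route, had 2404 and 1763 scaled counts in the Control-PyMT tumours against 5341 and 5595 in MYC-PyMT (log2 1.41, adjusted p = 0.000424). The later enzymes Adi1 and Mri1 rose by 1.40 and 1.19 on the log2 scale.

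Spermidine has a fixed use in the cell as the donor for hypusine, a modified lysine of the translation factor eIF5A. In that list of 4, 3 genes rose and none fell (median 1.09), beside 23.3% higher and 24.6% lower over all tested genes. This list was not tested as a set either. Eif5a itself had 28388 and 24371 scaled counts in the Control-PyMT tumours against 93077 and 111459 in MYC-PyMT, a log2 change of 1.95 (SE 0.23, adjusted p = 0.000143). Dhps and Dohh, the enzymes that build hypusine, rose by 0.95 and 1.23. Dohh no longer passed with Control-PyMT replicate 1 left out (log2 0.87, adjusted p = 0.0538). The second gene, Eif5a2, had a log2 change of -0.55 that did not pass (adjusted p = 0.114).

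Transport genes were higher in 3 of 7 cases and lower in 1 (median 0.46), beside shares of 23.3% and 24.6% over all genes. With 7 genes tested, these counts are no result about the list. Slc12a8, which has been linked to polyamine and to nicotinamide nucleotide transport, had 81.4 and 84.1 scaled counts in the Control-PyMT tumours against 2348 and 1036 in MYC-PyMT (log2 4.22, adjusted p = 2.41e-05). The MYC-PyMT libraries differed from each other, and both were far above the controls. Slc3a2, a subunit shared by several amino acid exchangers, rose from 5370 ± 126 to 12706 ± 118 (log2 1.24). Atp13a4, a P-type ATPase related to Atp13a3, rose from 198 ± 7.32 to 376 ± 48.7 (log2 0.92, adjusted p = 0.0129). It no longer passed with either control or MYC-PyMT replicate 1 left out (adjusted p = 0.0627 to 0.115). The vesicular carrier gene Slc18b1 fell by 0.72 on the log2 scale, a call that ended without any 1 of the 4 libraries (adjusted p = 0.0555 to 0.162). Atp13a3, a transporter linked to polyamine uptake, had a log2 change of -0.13 that did not pass.

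Of 5 further relatives and oxidases tested, 3 were lower and none higher (median -1.02), with Aoc1 among the 3 through its filter. The shares over all tested genes were 24.6% lower and 23.3% higher. Aoc1, the diamine oxidase that destroys putrescine, had 426 and 201 scaled counts in the controls and 6.04 and 5.49 in MYC-PyMT, a 54.4-fold difference of means. Since it entered the test only through the group where it is high, its p-value supports nothing and is not given. Azin2, a relative of Azin1, fell from 354 ± 11.8 to 133 ± 6.76 (log2 -1.41), opposite in direction to Azin1. Sat2, a relative of Sat1 by sequence, fell by 1.02. It no longer passed with either control or MYC-PyMT replicate 2 left out (adjusted p = 0.0617 to 0.0650).

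**Figure D4:**
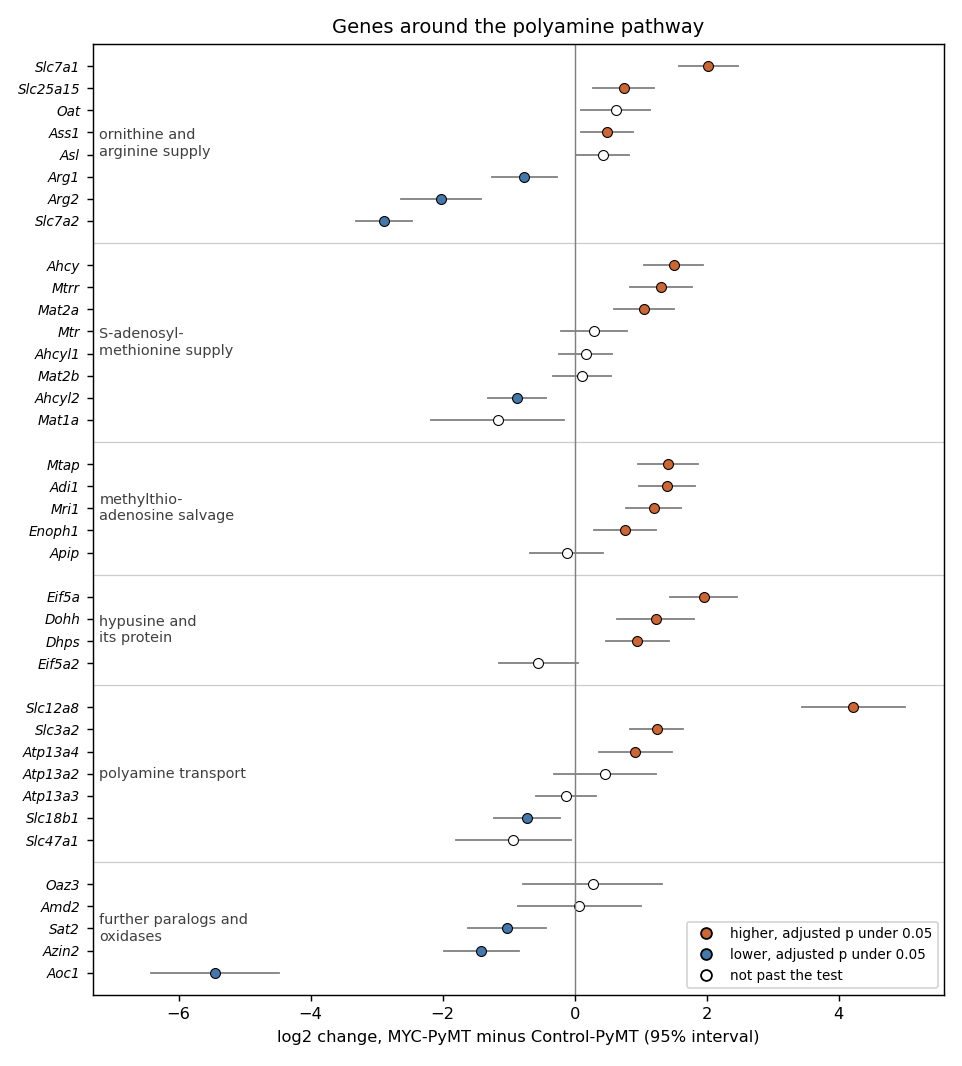
Log2 change with its 95% interval for the 37 tested genes around the pathway, in 6 lists; orange is higher and blue lower in MYC-PyMT at a limma adjusted p under 0.05, and white did not pass. Salvage and hypusine genes lie mostly to the right of 0, and arginine carriers and relatives reach far to both sides or to the left.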

How the data were processed

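The labels describe poly(A) selection and a stranded TruSeq kit, with 500 ng of RNA and 8 PCR cycles; RNA integrity was 3.3 to 9.6 and is not tied to samples. Reads were aligned with HISAT2 to mm10 (GRCm38.p5), and DESeq2 was used, per the submitters' processing notes. No source used here names the counter, its strand setting or the annotation. The authors deposited scaled counts, a signal equal to whole reads divided by a size factor per library: 100% of values came out whole within 0.001 reads.

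limma 3.58.1 (R 4.3.3, variance trend, two-sided) was fitted across all genes on log2(value + 1), for genes with at least 10 in at least 2 libraries, with Benjamini-Hochberg adjustment at 0.05. Groups came from sample titles. Other settings tried were pseudocounts of 0.5 and 5, dropping the level filter or raising it to 50, scaling by TMM or upper quartile, omitting the variance trend, the replicate block, removal of the transcript length trend (lowess), each library left out, a threshold of 0.10, and edgeR 4.0.16 and DESeq2 1.42.0 on recovered reads. The procedure was tested on simulated counts, whose spread and share of changed genes were not matched to these data. That run checks the code and gives no error rate for the results here.

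Coordinates and transcripts are from GENCODE M21 (GRCm38), where 20463 gene IDs matched, and promoters from RefSeq. The genes and lists were chosen with earlier results of these data known. Named genes were the 10 genes, Myc, S100a8, up to 3 called genes per direction in each related list with the largest change, and the 3 nearest profiles to Srm and Odc1, leaving out Gm, Rik and unnamed genes. Apip, Eif5a2, Atp13a3, Amd2, Echs1, Oaz1-ps, Ms4a1, Ptprc, Cd3e, Cd8a, Nkg7, Csf3r and Cxcr2 were named after their values were seen. Agmat, Slc22a2 and Satl1 were not analysed here. Another transport gene is not reported here and was left out of its list.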

Additional observations from a re-analysis of the deposited data

How the results depend on the processing

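Over 17 alternatives, the calls of Srm, Odc1, Paox and Oaz2 held in each one, with log2 changes of 2.57 to 3.03, 1.40 to 2.33, 2.14 to 2.47 and -1.08 to -0.80. Sms lost its call in 4, Amd1 in 5, Azin1 in 2 and Smox in 2, always with the same direction. Sat1 passed in none, and Oaz1 in none; removing the length trend, alone or with the replicate block, turned Oaz1 to -0.093, and the cause was not tested. Leaving out 1 library left 3 to 5 polyamine genes higher (3 without Control-PyMT replicate 2), 1 to 2 lower (1 without either control), 5 to 7 related genes lower, and 5236 to 6480 changed genes in the whole table, against 8010 with all libraries. Such fits have fewer samples and assume that the lone library varies like the other group. The log2 difference in Amd1 to Sms was -0.04, and -0.20 to 0.13 with 1 library left out; leaving out replicate 1 of Control-PyMT (0.13) or replicate 2 of MYC-PyMT (0.10) turned it positive.

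The replicate numbers were not shown to pair the libraries: replicate 1 deviations correlated at -0.089 between groups across genes. With the replicate block 8039 genes changed, 6 polyamine genes were higher and 2 lower, and 16 related genes were higher and 10 lower, so it changed no call of a polyamine gene. edgeR and DESeq2 gave 6 higher and 2 lower as well. Counts of reads were ample for all 10 genes, so the spread between 2 libraries, not depth, limits these results.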
